A study of Mus musculus with 11 samples.

Results

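TSLP and IL-33 are cytokines that epithelial and stromal cells make when skin is irritated, and they are called alarmins because they alert nearby immune cells. The genes described here are the ligands Tslp and Il33 and the 4 genes that encode their receptor chains, Crlf2, Il7r, Il1rl1 and Il1rap. These 6 genes were taken by symbol from the 24411 genes measured, and all 6 were found and passed the filter on low counts. Cyp24a1, the vitamin D 24-hydroxylase, was set beside them as a gauge of the response to the vitamin D analog used to inflame the skin.

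TSLP binds a receptor of Crlf2 (the TSLP receptor chain) and Il7r (the alpha chain shared with the IL-7 receptor), which signals through JAK kinases and STAT5. IL-33 is a nuclear protein released from damaged cells. It binds Il1rl1 (ST2), which pairs with the shared accessory chain Il1rap and signals through MyD88 and NF-kB. In skin, TSLP acts on dendritic cells and lymphocytes, and IL-33 acts on mast cells, basophils, regulatory T cells and type 2 innate lymphoid cells. Il1rl1 also gives a shorter transcript for a soluble protein that binds IL-33 without signaling.

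The 11 samples were RNA of back skin from Tg(act-EGFP)Y01Osb hosts, which carry an EGFP transgene, with an age given as 16-18 and no unit. All hosts had received 10 Gy of irradiation, a graft of sorted marrow cells from the femurs of Pdgfra-Cre;tdTomato mice, a recovery of 6 weeks and 6 applications of MC903 (calcipotriol) to the back, and skin was collected on day 14. The donor cells were tdTomato-negative in 7 samples and tdTomato-positive in 4, where tdTomato marks cells whose lineage has expressed the Cre of Pdgfra. No group here was without MC903 or without a transplant, so the levels below are those of treated skin. The labels number the samples without saying that each is a separate animal, and the p-values therefore cover sample-to-sample spread, which may be technical. Whole skin was sequenced, so more cells of a type and more RNA per cell cannot be told apart.

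Library totals ran from 7190750 to 9749840 expected counts. All 9 keratinocyte markers were detected, with summed levels of 11770 to 34120 CPM (counts scaled to library size). The libraries differed most in growing hair: the 17 hair follicle markers summed to 410.9 to 47510 CPM in negative and 562 to 14480 CPM in positive samples. The hair score, the mean z-score of these markers, lay between 0.73 and 1.15 in negative replicates 2 to 6 and was 0.47 in positive replicate 4. It was below 0 elsewhere, from -1.52 in negative replicate 7 to -0.48 in negative replicate 1. Positive replicate 1 stood apart in leukocyte markers, with a macrophage score of 2.0 and a neutrophil score of 1.73, against at most 1.12 and 0.88 in any other sample. Negative replicate 1 stood apart in mast cell markers, with a score of 1.79 against at most 0.68 in any other sample.

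Il33 and Il1rl1 each have a pair of transcription starts in the RefSeq promoter table on GRCm38.p6. These are shown because levels of this ligand and receptor moved together and the estimated mean length of Il1rl1 transcripts differed between samples. The table held windows for 5 of the 7 genes looked for (Crlf2, Il7r, Il33, Il1rl1 and Il1rap). Each line gives the 250 bases upstream of a start, 5′ to 3′ on the plus strand of the chromosome, with matches to the searched motifs in capitals.
Il33 upstream start, chr19:29924863-29925112: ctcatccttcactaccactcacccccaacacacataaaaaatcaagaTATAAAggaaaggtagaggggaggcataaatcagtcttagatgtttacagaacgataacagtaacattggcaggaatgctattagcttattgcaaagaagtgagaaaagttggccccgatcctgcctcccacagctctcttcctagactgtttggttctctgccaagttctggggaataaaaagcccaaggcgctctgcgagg
Il33 downstream start, chr19:29945540-29945789: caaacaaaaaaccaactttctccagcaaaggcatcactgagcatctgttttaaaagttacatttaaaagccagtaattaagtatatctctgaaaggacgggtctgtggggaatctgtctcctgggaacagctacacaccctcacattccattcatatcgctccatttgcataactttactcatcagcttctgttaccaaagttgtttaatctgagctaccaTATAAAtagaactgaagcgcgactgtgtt
Il1rl1 upstream start, chr1:40429320-40429569: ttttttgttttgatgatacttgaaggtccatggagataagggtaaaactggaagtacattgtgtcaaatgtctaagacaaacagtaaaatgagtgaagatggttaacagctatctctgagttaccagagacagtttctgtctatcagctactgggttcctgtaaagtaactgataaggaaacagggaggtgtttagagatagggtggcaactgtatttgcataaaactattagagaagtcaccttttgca
Il1rl1 downstream start, chr1:40439379-40439628: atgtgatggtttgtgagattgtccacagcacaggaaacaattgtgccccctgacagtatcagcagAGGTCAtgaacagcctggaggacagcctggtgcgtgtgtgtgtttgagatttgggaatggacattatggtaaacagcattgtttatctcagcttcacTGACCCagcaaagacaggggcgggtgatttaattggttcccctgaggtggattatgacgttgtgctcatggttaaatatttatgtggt

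The Il33 starts lie 20677 bases apart on chromosome 19, inside a gene that runs from 29925113 to 29960718. The capitals in both Il33 lines are TATAAA, the letters of a TATA box, which 13.6% of the 32851 promoter windows of 300 bases held on either strand. Counted from the start, these letters begin at position -29 in the downstream window and at position -203 in the upstream one. The Il1rl1 starts lie 10059 bases apart on chromosome 1, in a gene that runs from 40404864 to 40465418. The downstream Il1rl1 window holds AGGTCA (position -185, in 16.3% of windows) and GGGTCA read on the minus strand (shown as TGACCC, position -88, in 13.7%), 6-letter sites of the kind that nuclear receptors bind. Both strands were searched, and the nuclear receptor letters GGTTCA and AGTTCA, the AP-1 letters TGACTCA, the STAT letters TTCNNNGAA, the NF-kB consensus and the paired vitamin D response element (DR3) had no match in these 4 windows. The upstream Il1rl1 window held none of the motifs. A match or its absence describes these letters only.

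The alarmins stood at opposite ends of the 6 genes. In TPM, transcript abundance scaled per length and library, Il33 had the highest mean level at 32.6 ± 19.7 (SD, n = 11) and Tslp the lowest at 3.39 ± 2.08 (SD, n = 11). Between them came Il1rap (19.6 ± 5.61 TPM), Il1rl1 (10.1 ± 5.50), Crlf2 (9.71 ± 1.85) and Il7r (7.74 ± 2.86). Among neighbours in this order, Il1rl1 exceeded Crlf2 in only 5 of 11 samples, so these 2 were not separated. Il33 exceeded Il1rap in 9 samples, Il1rap exceeded Il1rl1 in 11, Crlf2 exceeded Il7r in 9 and Il7r exceeded Tslp in 10. The genes also differed in how far they varied: from the lowest to the highest sample, Il1rl1 spanned 9.54-fold, Tslp 7.54-fold and Il33 7.32-fold, but Il7r 2.88-fold, Il1rap 2.46-fold and Crlf2 1.72-fold. The span of Tslp rested on 5 to 43 counts per sample. Cyp24a1 spanned 11.3-fold, around a mean of 51.0 ± 38.0 TPM (SD, n = 11).

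**Figure D1:**
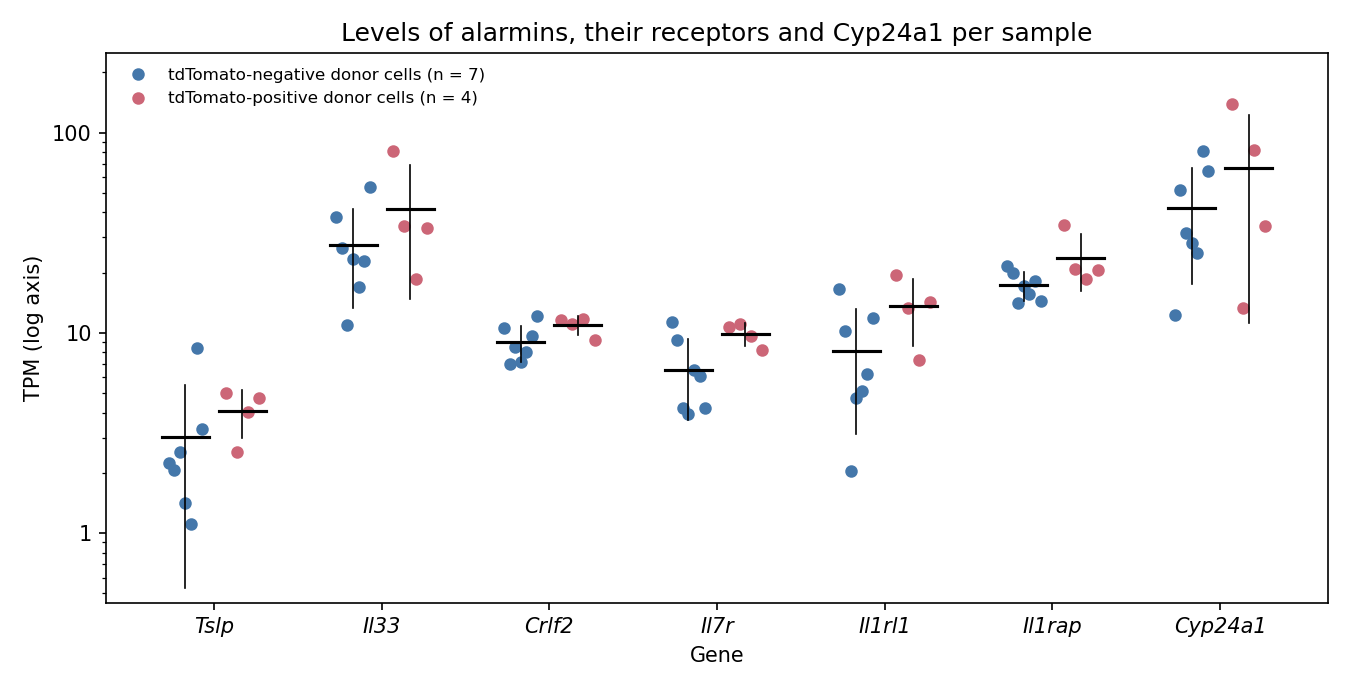
TPM on a log axis for each gene, with 1 point per sample, a thick line at the group mean and a thin line of 1 SD to each side. Il33 and Cyp24a1 lie highest, Tslp lowest, Crlf2 varies least, and the groups overlap in every gene.

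Tslp, the ligand most tied to the MC903 model, was measured from few reads. In the positive samples, replicates 1 to 4, it had 4.99, 2.54, 4.02 and 4.73 TPM. The negative samples ranged from 1.11 to 8.37 TPM with a median of 2.25. The highest level belonged to negative replicate 6 and the next highest to 3 of the positive samples, so the groups overlapped. Expected counts behind these values ran from 5 in negative replicate 5 (95% exact Poisson interval 1.62 to 11.7) to 43 in negative replicate 6 (31.1 to 57.9), intervals that cover counting error only. Tslp lies on chromosome 18. It passed the filter on low counts with 4 positive and 3 negative samples at or above 1.30 CPM.

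Il33, made in skin by keratinocytes and stromal cells, had 80.6, 34.0, 18.5 and 33.4 TPM in positive replicates 1 to 4. In the negative samples it ranged from 11.01 to 53.3 TPM with a median of 23.5. Positive replicate 1 was highest and negative replicate 3 lowest, and the other positive samples fell inside the negative range.

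Among the receptor chains, Crlf2 was the most even. It had 11.58, 11.13, 11.79 and 9.19 TPM in positive replicates 1 to 4, against 7.03 to 12.1 TPM (median 8.55) in the negative samples. Its highest value was that of negative replicate 7, and 3 of 4 positive samples lay above all other negative samples. It sits at 109554709 to 109559128 of chromosome 5 (GRCm38.p6).

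Il7r had 10.72, 11.05, 9.70 and 8.17 TPM in positive replicates 1 to 4 and 3.92 to 11.3 TPM (median 6.09) in the negative samples. All 4 positive samples were high, together with negative replicates 1 and 2 (11.3 and 9.21 TPM), and the other 5 negative samples were at 6.56 TPM or below. It spans 9506159 to 9529941 of chromosome 15. Its promoter window held AGTTCA at position -153 and TTCNNNGAA, the letters of a STAT site, at position -142 (in 14.0% and 8.30% of windows).

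Il1rl1, the IL-33 receptor chain, had 19.6, 13.3, 7.29 and 14.2 TPM in positive replicates 1 to 4. The negative samples ranged from 2.05 TPM in replicate 3 to 16.55 TPM in replicate 1, with a median of 6.24. The samples formed a gradient in which both groups were mixed.

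Il1rap, the accessory chain, which also serves the IL-1 and IL-36 receptors, had 34.7, 20.8, 18.6 and 20.6 TPM in positive replicates 1 to 4. The negative samples ranged from 14.1 to 21.6 TPM with a median of 17.2. Positive replicate 1 was far above all other samples, and the remaining 3 positive samples lay within the upper part of the negative range. It spans 26581509 to 26730128 of chromosome 16, and no motif searched was in its window or in that of Crlf2.

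None of the 6 genes differed between the donor groups past the threshold. The fitted log2 fold change (positive minus negative, edgeR quasi-likelihood test over 14588 genes) was above 0 in 6 of 6, against 48.6% of all genes tested, with a median of 0.52 against -0.01. Without positive replicate 1 the median of the 6 was 0.23. Tslp reached the filter's 1.30 CPM in all 4 positive but only 3 negative samples. Its place among the 6 is therefore no support for a difference. With a Benjamini-Hochberg adjusted p under 0.05 as the threshold, 0 of the 6 were called, as were 0% of all genes. At an unadjusted p under 0.05 only Il1rap was higher, against 7.05% of all genes in that direction and 9.73% in the other. In 0 of the 6 did all positive samples exceed all negative ones, against 0.61% of genes. DESeq2, limma-voom and limma-trend also called 0 of the 6, of 68, 0 and 0 genes called in all, while limma-voom with sample quality weights called 2093 genes and among the 6 only Il7r (log2 fold change 0.79, adjusted p = 0.0429, over all alternatives 0.0429 to 0.690).

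For Il1rap the log2 fold change was 0.45 ± 0.18 (SE, edgeR adjusted p = 0.265), and it was 0.18 without positive replicate 1. That of Il33 was 0.62 ± 0.41 (SE, edgeR adjusted p = 0.442), and 0.05 without the same sample. That of its partner Il1rl1 was 0.61 ± 0.41 (SE, edgeR adjusted p = 0.448), and 0.39 without that sample. Without negative replicate 1 the value of Il1rl1 was 0.91. The values for Il33 and Il1rap thus rested on positive replicate 1, the sample with the highest macrophage and neutrophil scores. All 10 macrophage markers were detected, with summed levels of 755.5 to 2090 CPM in positive and 652.4 to 1100 CPM in negative samples. Of 8 neutrophil markers 6 were tested, with sums of 53.02 to 550.1 and 66.83 to 424.4 CPM. The part of those cells in the result was not tested.

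The IL-7 receptor chain Il7r had a log2 fold change of 0.59 ± 0.28 (SE), with a 95% interval of -0.01 to 1.19 and an edgeR adjusted p of 0.3. With 1 sample left out it ran from 0.495 to 0.772, the highest without negative replicate 1. Crlf2 was at 0.26 ± 0.16 (SE, edgeR adjusted p = 0.409), and at 0.09 in a fit that held the hair score constant. In the same fit Il33 and Il1rl1 were at 0.35 each, Il7r at 0.52, Il1rap at 0.50 and Tslp at 0.55. The median of the 6 was 0.43 there. Without the hair score in the fit, Tslp was at 0.38 ± 0.48 (SE, edgeR adjusted p = 0.702). The Tslp value depended on single negative and positive libraries: it was 0.92 without negative replicate 6, and 0.25, 0.24 and 0.25 without negative replicate 4, negative replicate 5 and positive replicate 1. Cyp24a1 was at 0.65 ± 0.58 (SE, edgeR adjusted p = 0.571), at -0.03 without positive replicate 1 and at 0.999 without positive replicate 2.

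**Figure D2:**
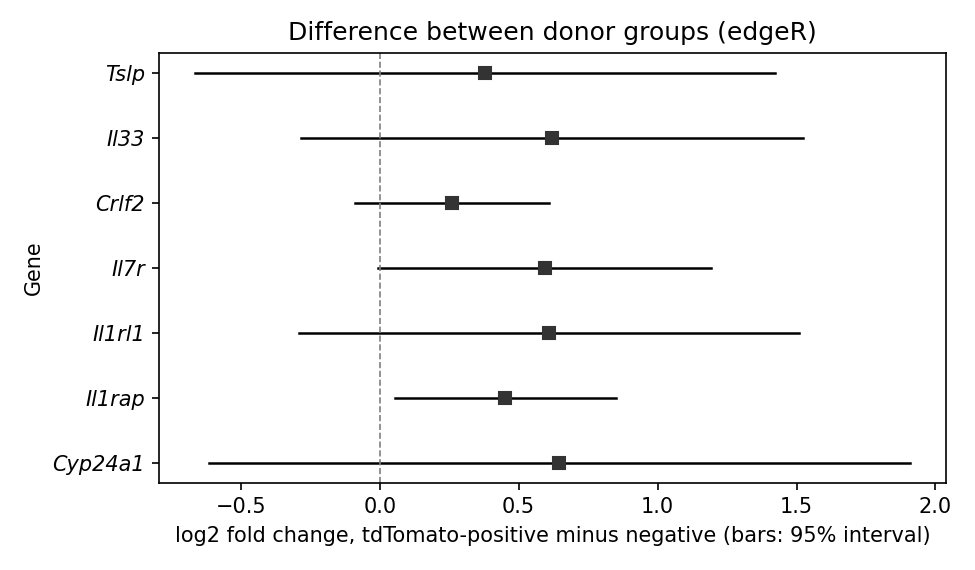
Fitted log2 fold change between donor groups for each gene (squares) with its 95% interval (bars) and a dashed line at 0. All 7 squares lie above 0, and the interval of Il1rap alone, from 0.05 to 0.85, leaves out 0 before adjustment.

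Ligands were then set against receptors within each sample, as the log2 ratio of TPM with 0.1 TPM added to both. The transcripts of Il33 outnumbered those of Il1rl1 in every sample, by 2.28 to 5.17 times. This was the steadiest of the 7 ratios computed, with an SD of 0.45 over 11 samples on the log2 scale. The Il33 to Il1rap ratio ran from 0.782 to 3.66. Tslp stayed below Crlf2 in every sample, at 0.148 to 0.871 of its level, and at 0.182 to 1.37 of that of Il7r. The receptor chains of TSLP were close to each other, with a Crlf2 to Il7r ratio of 0.766 to 2.81.

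The donor groups did not differ in any of these ratios past the threshold. The mean log2 ratio of Il33 to Il1rl1 was 1.49 ± 0.37 with positive donor cells (SD, n = 4) and 1.85 ± 0.46 with negative donor cells (SD, n = 7), with an exact permutation p of 0.206 (two-sided, 0.735 after Benjamini-Hochberg adjustment over 7 ratios). The log2 ratio of Tslp to Crlf2 was -1.44 ± 0.49 (SD, n = 4) against -1.81 ± 0.80 (SD, n = 7), with an exact permutation p of 0.448. Over the 7 ratios the adjusted p-values lay between 0.735 and 0.961. The smallest p that 4 samples against 7 can give is 0.00303.

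Across samples, the IL-33 ligand and its receptor rose and fell together. Of 21 pairs among the 6 genes and Cyp24a1, only Il33 and Il1rl1 passed by Pearson correlation, with r = 0.83 on log2 CPM (n = 11, permutation p = 0.00157, adjusted over the 21 pairs 0.0330) and Spearman rho = 0.86 (permutation p = 0.00111). The sample labelled negative replicate 3 was lowest in both genes, at 17.8 CPM of Il33 and 6.20 CPM of Il1rl1, and positive replicate 1 highest in both, at 124 and 47.4 CPM. Within the 7 negative samples r was 0.84 (exact permutation p = 0.0224, adjusted 0.285), and without those 2 extreme samples it was 0.68 (permutation p = 0.0462, adjusted 0.256), so neither passed after adjustment. After subtraction of the donor group means r was 0.81, and after subtraction of the fit on the hair score 0.75, with adjusted permutation p-values of 0.0556 and 0.0677. Leaving out negative replicate 2, 3, 5 or 6 or positive replicate 2 or 4 kept r between 0.76 and 0.84 but raised the adjusted p to between 0.0508 and 0.163. Both genes had r = -0.57 with the hair score.

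The accessory chain followed Il33 less evenly. The pair of Il33 and Il1rap had r = 0.64 (n = 11, permutation p = 0.0369, adjusted 0.154), which fell to -0.04 without negative replicate 3 and positive replicate 1 and was 0.05 in the negative samples. Without negative replicate 7, which had high Il33 and low Il1rap, it was 0.95 (adjusted permutation p = 0.00063). Between receptor chains, 3 pairs passed by rank and none by Pearson r. Il1rl1 and Il1rap, the chains of the IL-33 receptor, had rho = 0.83 (permutation p = 0.00264, adjusted 0.0181) with r = 0.65 (permutation p = 0.0354, adjusted 0.154), and r = 0.68 without negative replicates 3 and 4. Il7r and Il1rap had rho = 0.88 (permutation p = 0.00081, adjusted 0.0117) with r = 0.71 (permutation p = 0.00482, adjusted 0.0506), and r = 0.68 without negative replicates 4 and 7. Without positive replicate 1 or 3 its adjusted p was 0.0401 or 0.0297. Il7r and Il1rl1 had rho = 0.82 (permutation p = 0.00344, adjusted 0.0181) with r = 0.73 (permutation p = 0.00989, adjusted 0.0692), and r = 0.92 without the same 2 samples. Without negative replicate 7 alone its adjusted p was 0.0111. Crlf2 had rho = 0.43, 0.56 and 0.28 with Il7r, Il1rl1 and Il1rap, with adjusted permutation p-values of 0.367, 0.177 and 0.563.

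Tslp, read from 5 to 43 counts per sample, followed its receptor chains less closely. The part of counting error in its correlations was not tested. With Crlf2 its r was 0.55 (n = 11, permutation p = 0.0823, adjusted 0.247) and with Il7r 0.19 (permutation p = 0.585, adjusted 0.646). Without negative replicates 5 and 6 these values were 0.64 and 0.36. The alarmins themselves had r = 0.30 with each other (permutation p = 0.377, adjusted 0.571), and 0.15 within the negative samples.

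Cyp24a1 was nearest to Tslp among the 6 genes. Their r was 0.61 (n = 11, permutation p = 0.0441, adjusted 0.154) and their rho 0.72 (permutation p = 0.0165, adjusted 0.0694), so the pair did not pass over the 21 pairs. The value was 0.65 in the negative samples and 0.58 without negative replicate 1 and positive replicate 1. Cyp24a1 had 12.25 and 13.32 TPM in negative replicate 1 and positive replicate 2, where Tslp had 2.25 and 2.54 TPM, and 80.8 and 138 TPM in negative replicate 6 and positive replicate 1, where Tslp had 8.37 and 4.99 TPM. For Il33, Crlf2, Il1rap, Il1rl1 and Il7r, r with Cyp24a1 was 0.25, 0.23, 0.26, 0.02 and -0.07, with permutation p-values of 0.448 or more. In negative replicate 1, Il1rl1 (16.55 TPM) and Il7r (11.3 TPM) were at their highest among the negative samples while Cyp24a1 was at its lowest of all samples.

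**Figure D3:**
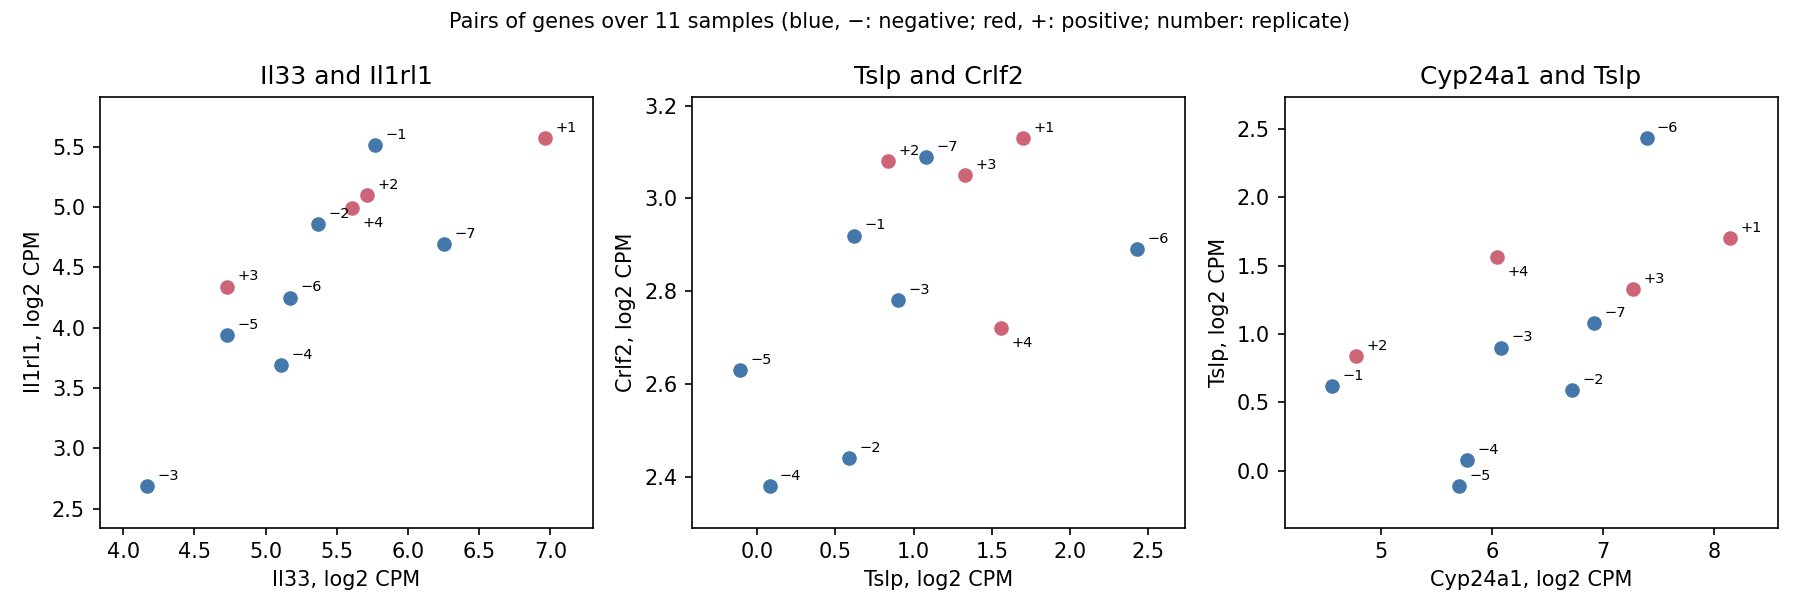
Log2 CPM of 3 pairs of genes, with 1 point per sample, numbered by replicate and coloured by donor group. Il33 and Il1rl1 rise together from negative replicate 3 to positive replicate 1 (r = 0.83), while Tslp with Crlf2 (r = 0.55) and Cyp24a1 with Tslp (r = 0.61) scatter more widely.

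The levels of Il7r, Il1rl1, Il33 and Crlf2 moved with scores of cell type markers, and those of Tslp, Il1rap and Cyp24a1 had no such relation past the threshold. These 98 correlations of 7 genes with 14 marker scores were computed after the other results were seen, and 6 had an adjusted permutation p under 0.05. Il7r followed the T cell and innate lymphoid list (r = 0.96, n = 11, permutation p = 1e-05, the smallest that 100000 resamples can give, rho = 0.96, adjusted 0.00098). Its r there was 0.97 in the negative samples and 0.93 without the 2 samples farthest from the median score. Among the 11 genes of that list, r with Il7r ran from 0.01 for Areg to 0.95 for Icos, and was 0.83 for both Cd3e and Cd4. Il7r also followed the eosinophil and basophil list (r = 0.79, permutation p = 0.00255, adjusted 0.0433). Against the mast cell list its r was 0.75 (permutation p = 0.00612, adjusted 0.0688).

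Il1rl1 followed the eosinophil and basophil list (r = 0.95, n = 11, permutation p = 2e-05, rho = 0.95, adjusted 0.00098), with 0.97 in the negative samples and 0.88 without the 2 most extreme. Only 4 of the 8 genes of that list were tested. The eosinophil granule genes Epx and Prg2 had 5 and 30 counts in all 11 samples together, and the score was that of Ccr3, Mcpt8, Cd200r3 and Il3ra. With Cd200r3, a receptor of basophils and mast cells, r was 0.79, with Ccr3 0.74, with the basophil protease Mcpt8 0.69 and with Il3ra 0.14. Against the mast cell list r was 0.76 (permutation p = 0.00729, adjusted 0.0688). Among the 9 tested genes of that list r with Il1rl1 was -0.21 for Kit. For the others it ran from 0.68 for Mcpt4 to 0.83 for Mrgprb2 and 0.87 for Ms4a2. Il1rl1 also had r = 0.76 with the macrophage and monocyte score (permutation p = 0.00874, adjusted 0.0714). Which cells held the Il1rl1 transcripts was not tested.

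Il33 moved with the macrophage and monocyte score (r = 0.87, n = 11, permutation p = 0.0006, rho = 0.92, adjusted 0.0196), with 0.86 in the negative samples and 0.88 without the 2 most extreme. All 10 macrophage genes had a positive r with Il33, from 0.63 to 0.86. Its r with the neutrophil score was 0.82 (permutation p = 0.00265, adjusted 0.0433) and with the keratinocyte score 0.34, which was 0.87 within the negative samples. Within those samples its r with the hair score was -0.88. Over all 11 samples its r with the eosinophil and basophil score was 0.77 (permutation p = 0.00632, adjusted 0.0688). Crlf2 moved opposite to the melanocyte score (r = -0.84, n = 11, permutation p = 0.00126, adjusted 0.0309) and had r = -0.77 with the hair score (permutation p = 0.00772, adjusted 0.0688) and 0.72 with the endothelial score (permutation p = 0.0168, adjusted 0.0915). Among the 8 endothelial genes r with Crlf2 ran from 0.39 for Tek to 0.84 for Eng. The part of hair content in the Crlf2 level was not tested. Il1rap had r = 0.81 with the macrophage and monocyte score (permutation p = 0.00537, adjusted 0.0688). That was 0.22 in the negative samples and 0.24 without the 2 most extreme. With the neutrophil score its r was 0.73 (permutation p = 0.0119, adjusted 0.0778). Tslp, with its 5 to 43 counts per sample, had no r beyond -0.46 with any of the 14 scores.

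**Figure D4:**
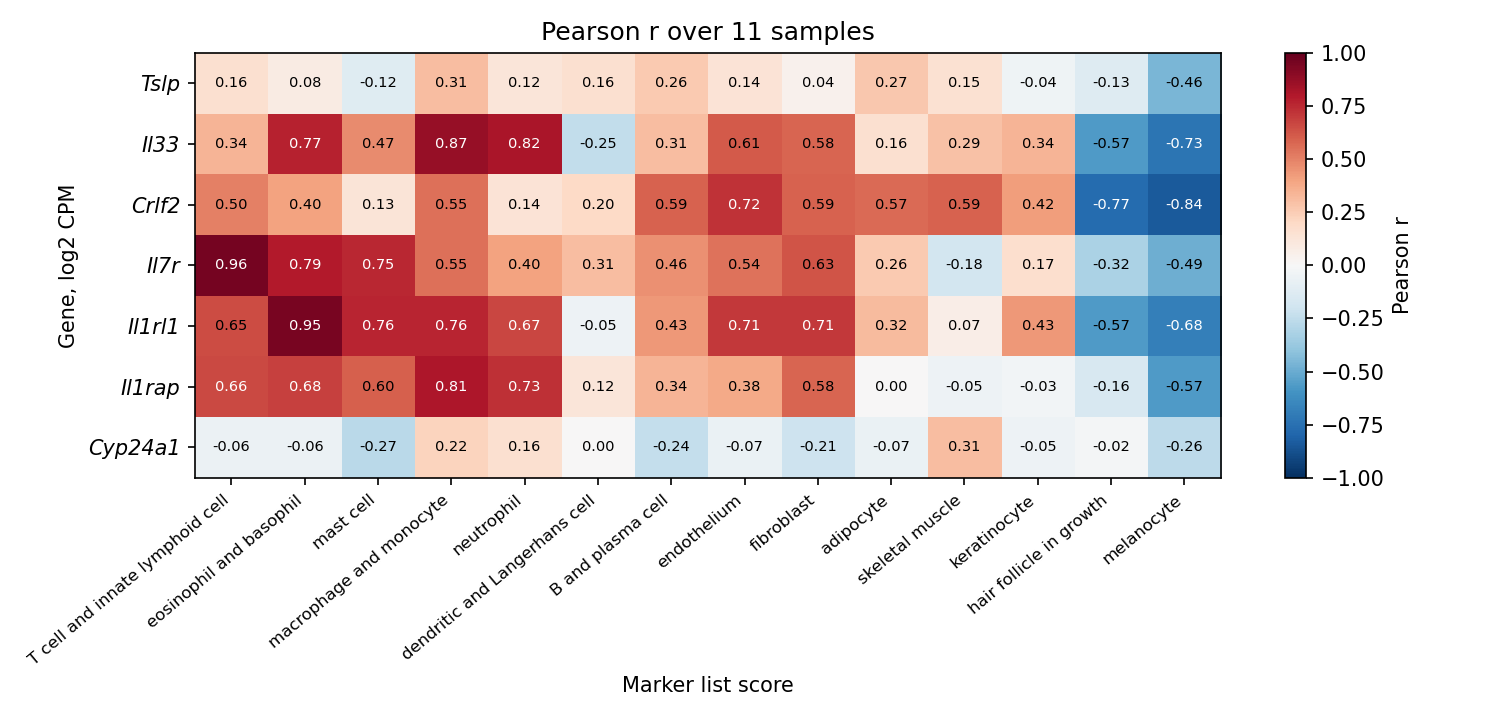
Pearson r over 11 samples between log2 CPM of each gene (rows) and the score of each marker list (columns), on a scale from -1 to 1. The darkest cells are Il7r with T cell and innate lymphoid markers (0.96), Il1rl1 with eosinophil and basophil markers (0.95), and Il33 with macrophage markers (0.87), while the rows of Tslp and Cyp24a1 are pale.

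The closest genes to each member were then searched among all 14588 tested genes, as a description without a test. The genes nearest to Il7r over the 11 samples were Icos, a costimulatory receptor of T cells (r = 0.950), Sema3a (0.931) and Zc3h12d (0.915). Those nearest to Crlf2 were Ly6c1 (0.943), Cd34 (0.930) and Egfl7 (0.916). Nearest to Il1rl1 were Ugt1a7c (0.969), Rbms1 (0.961) and Stom (0.953), and nearest to Il33 were Fam162a (0.950), Samd12 (0.944) and Cd44 (0.936), the hyaluronan receptor. Il1rap was nearest to Lilr4b, a receptor of myeloid cells (0.944), Mmp8, the neutrophil collagenase (0.929), and Hspa13 (0.928). Tslp, read from 5 to 43 counts per sample, had less close neighbours: Dscc1 (0.880), Cnn1 (0.817) and Nadsyn1 (0.779). Among all genes, Il1rl1 ranked 197 in closeness to Il33, and Il33 ranked 250 in closeness to Il1rl1. Crlf2 ranked 138 in closeness to Tslp, but Tslp ranked 1727 in closeness to Crlf2. Cyp24a1 ranked 49 in closeness to Tslp, and Tslp ranked 109 in closeness to Cyp24a1.

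Il1rl1 also differed between samples in the estimated mean length of its transcripts. The files list 3 transcripts for it and give their mean length weighted by estimated abundance, so a lower value means a greater weight of short transcripts. Their RefSeq names match 3 GENCODE M21 transcripts through the RefSeq names that GENCODE lists, although the models used for the files may differ from these in length. On GRCm38, GENCODE M21 gives them 5302 bases (chromosome 1, 40439627 to 40465415), 2661 bases (40439776 to 40448148) and 1216 bases (40429570 to 40446723). The long form runs to the 3′ end of the gene, and the 1216-base form begins at the upstream start printed above. The mean length was 3880, 4093, 4706 and 3776 bases in positive replicates 1 to 4. In negative replicates 1 to 6 it lay between 4463 and 4690 bases, and in negative replicate 7 it was 3735 bases. Thus 3 of the 4 positive samples and 1 of the 7 negative samples had a shorter mean transcript. This measure was chosen after its values were seen and was not tested, and its error is unknown because the files give no counts per transcript. With effective lengths as an offset, the log2 fold change of Il1rl1 was 0.75 in place of 0.61. For Il1rap, with 4 transcripts, the mean length varied only from 4033 to 4263 bases.

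**Figure D5:**
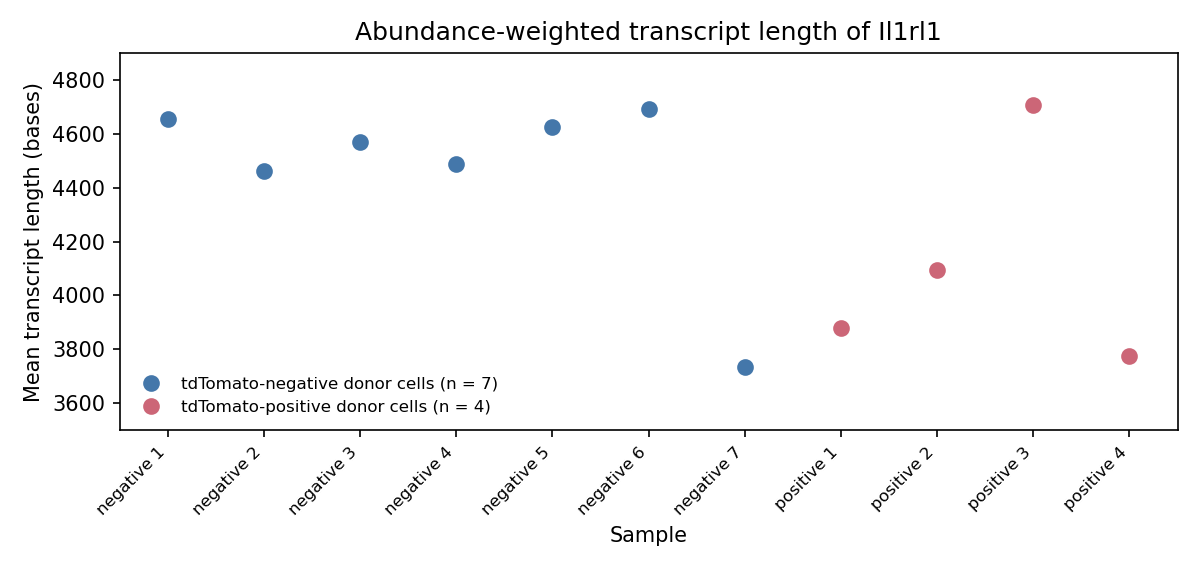
Mean length in bases of Il1rl1 transcripts, weighted by abundance, for each of the 11 samples (the axis does not start at 0). Positive replicates 1, 2 and 4 and negative replicate 7 lie between 3735 and 4093 bases and the other 7 samples between 4463 and 4706 bases.

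A list of 24 genes for signaling below these receptors also held the ligand Il7, the chain Il2rg and inhibitors such as Socs1 and Socs3. Of the 24, 14 lay above 0 and 10 below, with a median log2 fold change of 0.06. With edgeR, 0 passed over all genes, and at an unadjusted p under 0.05, 2 were higher and 0 lower, against 7.05% and 9.73% of all genes. Jak1, the kinase that serves the Il7r chain, had 298.5 ± 30.1 CPM with positive donor cells (SD, n = 4) and 228.9 ± 41.2 CPM with negative ones (SD, n = 7) (log2 fold change 0.38 ± 0.14 SE, edgeR adjusted p = 0.252). With the hair score held constant its log2 fold change was 0.21, and with sample quality weights in limma-voom it was 0.47 and passed (adjusted p = 0.0218, over all alternatives 0.0218 to 0.660). The other was Il2rg, the common gamma chain that pairs with Il7r in the IL-7 receptor, at 0.57, named after its value was seen. The member with the smallest p below 0 was Tab2, an adaptor of the kinase TAK1, at -0.09. Stat5a, Stat5b and Myd88 had log2 fold changes of 0.12, 0.19 and 0.09.

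Among 11 tested genes of other epithelial alarmins and their receptors, 9 lay above 0, against 48.6% of all genes, and the median was 0.17, which was 0 without positive replicate 1. In edgeR 0 passed over all genes, and 2 were higher and 0 lower at an unadjusted p under 0.05, against 7.05% and 9.73% of all genes. Il18rap, the accessory chain of the IL-18 receptor, had 13.85 ± 7.89 against 8.002 ± 2.81 CPM (log2 fold change 0.79 ± 0.32 SE, edgeR adjusted p = 0.264), and 0.33 without positive replicate 1. The other was Il1a, an alarmin of keratinocytes, at 0.64, named after its value was seen. Il17ra, a chain of the IL-25 and IL-17 receptors, had -0.02, a value that crossed 0 under 8 of 25 alternatives. Il25, the remaining epithelial alarmin of type 2 responses, had 2 counts in all 11 samples together.

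Of 18 regulators of alarmin production in keratinocytes, 0 passed over all genes in edgeR. At an unadjusted p under 0.05, 1 was higher and 4 were lower, against 7.05% and 9.73% of all genes, and the median was 0.05. Notch1, whose loss in keratinocytes is known to raise TSLP, had 279.9 ± 58.7 CPM with positive donor cells (SD, n = 4) and 420.5 ± 101 CPM with negative ones (SD, n = 7). The difference was -0.59 ± 0.19 on the log2 scale (SE, edgeR adjusted p = 0.248). Rbpj, the DNA-binding partner of Notch, had 119.5 ± 12.9 against 102.7 ± 6.66 CPM. The other 3 lower genes, named after their values were seen, were the vitamin D receptor Vdr (-0.48), the retinoid receptor Rxrb (-0.23) and the ion channel Trpv3 (-0.73). With the hair score held constant, the log2 fold change of Notch1 was -0.29 and that of Rbpj 0.19. With sample quality weights in limma-voom both passed, Notch1 at -0.72 (adjusted p = 0.0211, over all alternatives 0.0211 to 0.660) and Rbpj at 0.27 (adjusted p = 0.0272, over all alternatives 0.0272 to 0.659).

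Genes downstream of the alarmins in type 2 inflammation were read from few counts where they encode cytokines. Il31 had 0 counts in all 11 samples, which allows up to 3 counts per sample. Il5, Il13, Ccl17 and Tnfsf4 had 7, 29, 29 and 24 counts in all samples together, so differences in them were not detectable at this depth. Of the 17 tested members of this list 14 lay above 0, against 48.6% of all genes, with a median of 0.30. In edgeR 0 passed over all genes, and 3 were higher and 2 lower at an unadjusted p under 0.05, against 7.05% and 9.73% of all genes. Ccl11 (eotaxin) and Gata3, which have the smallest p in each direction, had log2 fold changes of 0.95 and -0.44. Ccl11 passed in DESeq2 (0.96, adjusted p = 0.0265) and with sample quality weights in limma-voom (1.10, adjusted p = 0.0211), over all alternatives 0.0211 to 0.652. Gata3 passed with those weights (-0.53, adjusted p = 0.0218, over all alternatives 0.0218 to 0.659) and was at -0.23 with the hair score held constant. Gata3 was also listed as a marker of growing hair follicles and was left out of the hair score. Which cells held its transcripts was not tested. Named after their values were seen, the others were Cd86, a costimulatory ligand of antigen-presenting cells (0.73), the eotaxin receptor Ccr3 (0.94) and the chemokine receptor Ccr4 (-0.85). Ccr4 had 0.872 to 1.62 CPM in positive samples, partly under the filter's 1.30 CPM, and up to 3.37 CPM in negative ones. It passed the filter only with the negative group, so its place among the lower genes is no support for a difference. The median of the list was 0.17 without positive replicate 1.

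In the vitamin D response list around Cyp24a1, 3 of 7 tested members lay above 0 and 4 below, and the median was -0.48. The list mixes enzymes of vitamin D metabolism, the receptor Vdr and response genes, so its median is no gauge of the response to MC903. In edgeR 0 passed over all genes, and 0 were higher and 3 lower at an unadjusted p under 0.05, against 7.05% and 9.73% of all genes. Cyp27b1, the vitamin D 1-alpha-hydroxylase, had 0.6795 ± 0.209 CPM with positive donor cells (SD, n = 4) and 1.499 ± 0.476 CPM with negative ones (SD, n = 7). All positive samples lay at or below 0.945 CPM, under the filter's 1.30 CPM, and the negative ones reached 2.16 CPM, so this gene passed the filter only through the negative group. Its place among the 3 lower genes is therefore no support for a difference. The other lower genes, named after their values were seen, were Vdr (-0.48) and the calcium channel Trpv6 (-1.26). Cd14, a co-receptor for lipopolysaccharide that macrophages also express, had 1.17 ± 0.64 (SE), and 0.00 without positive replicate 1. The median of the list was -0.04 with the hair score held constant and between -0.18 and -0.16 without negative replicate 2, 3, 4 or 5, fits in which Cyp27b1 no longer passed the filter and was not in the list.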

How the data were processed

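Total RNA of back skin was sequenced after removal of ribosomal RNA (KAPA RiboErase kit), per the labels' protocols. RSEM, Trim Galore, bcl2fastq and the build GRCm38 appear in the submitters' processing notes. The aligner, strand setting and tool versions were not given in the sources used here. Expected counts deposited by the authors are RSEM estimates per gene, not normalized, with 8.17% of values further than 0.005 from a whole number. TPM deposited by the authors stand beside the length and effective length of each gene, per the file headers, and RSEM scales TPM by effective length and averages gene lengths over transcripts by abundance.

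Expected counts were rounded. Of 24411 genes, 14588 passed filterByExpr (minimum count 10, minimum total 15). The test was edgeR 4.0.16 glmQLFit in legacy mode and glmQLFTest (R 4.3.3), with TMM factors, group as the only term and Benjamini-Hochberg adjustment over all tested genes. Each standard error is the size of the log2 fold change over the root of its F statistic. Log2 CPM used a prior count of 2. Correlations used 100000 permutations, exact within the 7 negative samples. DESeq2 1.42.0 and limma 3.58.1 were alternatives, beside other normalizations and filters, a hair covariate, a block on replicate number and fits without each sample in turn. The version 4 quasi-likelihood fit and the marker correlations were added after seeing the data. The fits were tested on simulated data.

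The members and 20 gene lists (212 symbols, 211 found) were chosen with earlier results of these data known. Named genes were the 6 members and Cyp24a1, the 3 genes closest in r to each member, and the member of each list that marks no cell type with the smallest p in each direction. No library was a copy of another (chi-square per degree of freedom 3.57 or more).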

Additional observations from a re-analysis of the deposited data

Results flagged for a closer look

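Of 34 sets of values (levels, ratios and transcript lengths per donor group), 5 held a sample far from the rest of its group. A rate of about 1 in 20 would hold for independent sets of normal values. These sets overlap, because the ratios were built from the levels. The Il1rl1 length was chosen after its values were seen, so the count of 5 is no test of an excess. Tslp had 8.37 TPM in negative replicate 6, and the other negative samples lay between 1.11 and 3.31 TPM. In the same sample the log2 ratio of Tslp to Crlf2 was -0.20, against -2.75 to -1.72 in the other negative samples. Il1rap had 34.66 TPM in positive replicate 1, against 18.59 to 20.79 TPM in the other positive samples. The log2 ratio of Il33 to Il1rl1 in that sample was 2.04, against 1.35 or less. The mean transcript length of Il1rl1 was 3735.14 bases in negative replicate 7, against 4462.55 to 4690.22 bases in the other negative samples.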

How the results depend on the processing

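Across 25 alternatives the log2 fold changes of the 6 members kept their direction, and only that of Il7r passed the threshold, under limma-voom with sample quality weights, which called 2093 genes and 1 member. DESeq2 called 68 genes (37 higher, 31 lower) and 0 members, and gave no adjusted p for 851 genes. Leaving out 1 sample at a time gave 0 to 3 genes called (1 without negative replicate 4, 3 without negative replicate 7). The cause was not tested. Under quality weights Cyp24a1 was at -0.364 and Il17ra at 0.057. Il17ra was also at 0.011 with upper quartile normalization and at 0 with limma-trend on TPM at either pseudocount. With 1 sample left out, Cyp24a1 ran from -0.034 to 0.999, Il17ra from -0.068 to 0.025 and Cd14 from -0.005 to 1.593.

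Replicate numbers showed no clear pairing of the samples, but 4 correlations cannot exclude a pairing or a batch by number. Deviations of same-numbered samples correlated at -0.04, -0.14, -0.05 and 0.34, and none of the 4 positive samples correlated best with its own number. With a replicate block edgeR called 0 genes (smallest adjusted p 0.155, 2366 of 14588 genes at an unadjusted p under 0.05 in either direction). Negative replicates 5, 6 and 7 share their number with no positive sample, so they did not enter the group difference there. That left out negative replicate 6, the sample highest in Tslp. Tslp was at 0.92 and Il17ra at 0.028 in the fit with the block. There 4 members (Tslp, Il7r, Il33 and Il1rl1) were higher at an unadjusted p under 0.05, and Crlf2 and Il1rap were not. The share of all genes higher in the same fit was not computed, so these 4 are no support for a difference. In the main fit 1 member, Il1rap, was higher at that threshold.

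Of the 21 pairs, 2 were called on log2(TPM + 0.1), 0 after subtraction of the group means, 0 after subtraction of the fit on hair, 0 in the 7 negative samples, and 0 to 3 with 1 sample left out. Pairs without a call changed sign. After subtraction of the group means r was -0.05 for Tslp with Il7r and -0.07 for Cyp24a1 with Il1rl1. After subtraction of the fit on hair it was -0.04 for Crlf2 with Il1rl1. In the negative samples it was -0.02 for Tslp with Il7r, -0.03 and -0.36 for Crlf2 with Il7r and Il1rap, and -0.17 and -0.26 for Cyp24a1 with Il1rl1 and Il1rap. Without the 2 samples farthest from the median it was -0.06 and -0.04 for Il33 with Il7r and Il1rap, and -0.02, -0.01 and -0.32 for Cyp24a1 with Il33, Il1rl1 and Il1rap. With 1 sample left out it ran from -0.04 to 0.33 for Tslp with Il7r, from -0.06 to 0.51 for Crlf2 with Il1rap, and for Cyp24a1 from -0.33 to 0.13 with Il7r, from -0.19 to 0.39 with Il33, from -0.27 to 0.28 with Il1rl1 and from -0.43 to 0.40 with Il1rap.

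No ratio was called under any of 14 alternatives. With 1 sample left out the group difference in the log2 ratio ran from -0.232 to 0.253 for Tslp to Il7r, from -0.052 to 0.361 for Il33 to Il1rap and from -0.219 to 0.416 for Tslp to Il33, which was -0.054 with a pseudocount of 1 TPM. Depth limits Tslp most, with 5 to 43 counts per sample, and the cytokines below it in the pathway.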
